A study of Homo sapiens with 15 samples.

Results

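Of the genes that endogenous EWS/FLI (endo-EF) activated in A673 Ewing sarcoma cells, 29 stayed, on average, at the depleted level when wildtype EWS/FLI (WT-EF) was put back. They were chosen from the gene counts by 3 conditions, namely a mean of at least 20 counts over the 15 libraries, iLuc minus iEF of at least 1.5, and WT-EF minus iEF between -0.25 and 0.25, both on the scale of log2 CPM (counts scaled to a common library size, with 2 counts added before the logarithm) and both from means of 3 libraries. These 29 genes are 2.79% of the 1039 activated genes that met the first 2 conditions, out of 15467 genes with a mean of at least 20 counts and 57820 genes in all. Of the same 1039 activated genes, 588 (56.6%) had a WT-EF minus iEF of 1.5 or more, 409 (39.4%) lay between 0.25 and 1.5, and 13 (1.25%) lay below -0.25. Because both differences chose the genes, their values in iLuc, iEF and WT-EF are given as a description, without a test.

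A673 cells were transduced with an shRNA on day 1 and with a cDNA on day 5, both by retrovirus. All conditions were selected with puromycin at 2 μg/mL, and from day 6 to day 16 also with hygromycin B at 400 μg/mL. iLuc cells received a luciferase shRNA with an empty vector, so that endo-EF was kept, and iEF cells carried an empty vector with one against EWS/FLI. WT-EF, Δ22 and DAF cells carried the shRNA against EWS/FLI together with a cDNA, namely wildtype EWS/FLI, Δ22, from which the EWS domain is removed, or DAF, whose EWS domain carries tyrosine to alanine mutations. Each condition had 3 libraries of the 1 cell line, and nothing in the labels says whether they came from separate transductions, so that p-values measure the spread between these libraries. Exogenous constructs were expressed from a retroviral vector rather than from the fusion's own promoter.

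Total counts ran from 28659475 to 41859880 per library. Of 8 markers of Ewing sarcoma cells, 7 were tested, with a summed level of 2630 to 2795 CPM in iLuc and 1689 to 2238 CPM in iEF, while CD99 had 0 to 3 counts in every library and gave no check of the line. CCND1 had the most counts of the 7 in every library (46706 to 82710, at most 62088 in iLuc), so the sum hides the others. LIPI ran from 114 to 8500 counts and PRKCB from 636 to 16908. These 2, FLI1 and NKX2-2 had their highest count in an iLuc library, and NR0B1, STEAP1 and CCND1 in another. The 8 fibroblast and mesenchymal markers summed to 159 to 280 CPM in iLuc, 1457 to 2029 CPM in iEF, 480 to 641 CPM in WT-EF, 1090 to 1805 CPM in Δ22 and 1249 to 1529 CPM in DAF, and their part in the results below was not tested. Blood markers summed to at most 3.62 CPM in any library. In bulk RNA, fewer cells that express a gene and less RNA of it per cell cannot be told apart.

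EWS/FLI joins the low-complexity EWS domain to the DNA-binding domain of FLI1, an ETS family transcription factor. ETS proteins recognise a GGAA core, and EWS/FLI also binds runs of consecutive GGAA repeats, called GGAA microsatellites, from which it activates genes such as NR0B1. In the knockdown/rescue system the endogenous fusion is depleted and a cDNA takes its place, so that a gene can be read for its need of EWS/FLI and for its response to a given construct. The targeted gene FLI1 was at 48.0, 47.8 and 52.4 CPM in iLuc replicates 1, 2 and 3 and at 12.9, 15.5 and 15.3 CPM in iEF. Its levels were 16.0, 18 and 18.7 CPM in WT-EF, 24.4, 32.9 and 36.2 CPM in Δ22 and 22.1, 23.6 and 27.3 CPM in DAF. These reads come from endogenous FLI1 sequence and from the cDNA alike. FLI1 thus lay just outside the group, with a WT-EF minus iEF of 0.27.

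GGAA repeats near these genes were looked for first, in the GRCh37 genome. A run was counted where GGAA was repeated at least 4 times without a gap on either strand, within 5 kb upstream to 1 kb downstream of the annotated start. None of the 28 members with a match in the annotation held such a run (0%), against 67 of 988 other activated genes (6.78%), 56 of the 578 activated genes that WT-EF raised by 1.5 or more (9.69%) and 2.35% of 15097 genes with a mean of at least 20 counts. Within 100 kb on either side, a run of at least 8 repeats was found for 9 members (32.1%), 41.7% of other activated genes, 51.4% of those raised by WT-EF and 23.2% of all these genes. These shares are descriptions of letters in fixed windows, and say nothing of binding. For a group of 28 genes, 0 in the nearer window is near the other shares, and nothing is read from it. The longest run of each of these 9 members was taken. The 3 that lie closest to a member's start are shown beside that of NR0B1, a gene that WT-EF restored. They show how uninterrupted runs and their distances compare, and the lengths of whole microsatellites were not compared. The capitals mark the run and lower case the 20 flanking bases on each side, written 5′ to 3′ along the strand of the gene. That of NR0B1 (chrX:30328855-30328938, minus strand) has 11 repeats and lies 1.41 kb upstream of the start, outside annotated genes. The lower-case bases before it hold further GGAA repeats past an inserted base, so the whole NR0B1 microsatellite is longer than this run. That of ITGB2 (chr21:46345318-46345417, minus strand) has 15 repeats, read as TTCC on the gene's strand, and lies in an intron 6.51 kb downstream of the start. That of HLA-DPB1 (chr6:33052609-33052696, plus strand) has 12 repeats and lies in an intron 8.86 kb downstream. That of FADS1 (chr11:61620745-61620824, minus strand) has 10 repeats, 24.0 kb upstream, in an intron of FADS2.
NR0B1: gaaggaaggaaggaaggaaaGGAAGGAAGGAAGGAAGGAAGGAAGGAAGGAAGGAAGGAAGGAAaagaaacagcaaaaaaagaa
ITGB2: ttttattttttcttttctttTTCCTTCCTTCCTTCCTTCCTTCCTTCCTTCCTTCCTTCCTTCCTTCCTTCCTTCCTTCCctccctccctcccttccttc
HLA-DPB1: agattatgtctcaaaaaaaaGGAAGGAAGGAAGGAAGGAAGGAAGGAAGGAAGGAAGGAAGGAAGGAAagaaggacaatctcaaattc
FADS1: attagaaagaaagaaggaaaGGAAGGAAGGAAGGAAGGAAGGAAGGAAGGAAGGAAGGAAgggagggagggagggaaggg

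In RefSeq's promoter table of GRCh38.p14, which covers 250 bases before to 50 after each start, 18 of the 29 members had an entry. BACE2, MEIOB, C1QL1, ADAM28, MEOX1, ARHGAP20, ITGB2, ABCG1, LARGE2 and ENSG00000179294 were among those that had none. The letters CCGGAAG, an ETS consensus, were searched on both strands and were in 0 of the 18 promoters, in 5.74% of 697 activated genes' promoters and in 10.7% of all 27305. With only 18 promoters, 0 cannot be told apart from these shares, and nothing is read from it. The shorter GGAAGG was in 6 of 18 (33.3%) and in 34.0% of all promoters. Its extension GGAAGGAA was in 1, that of HLA-DMB, against 3.58% of all.

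**Figure D1:**
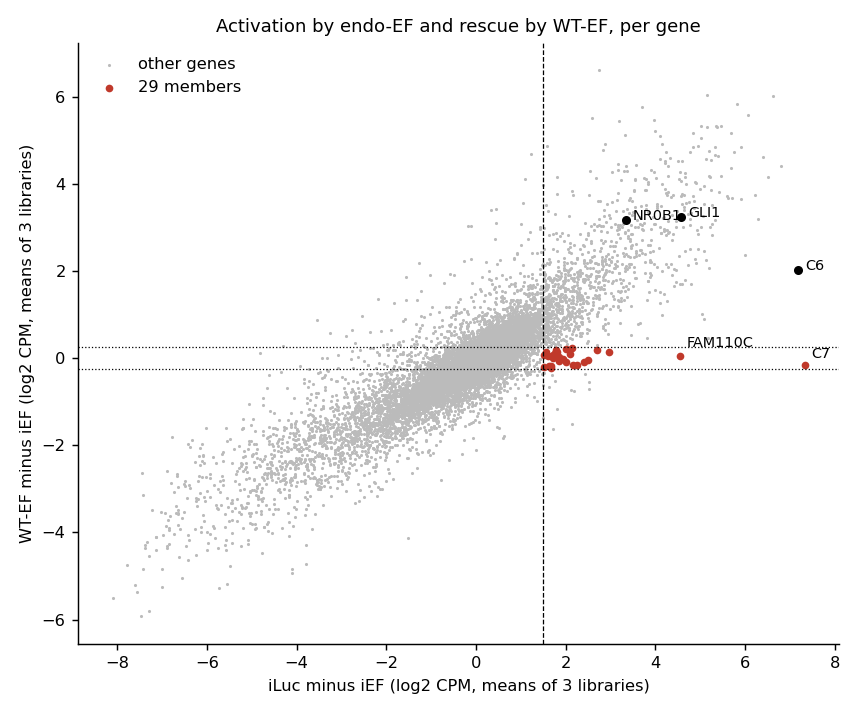
Each point is a gene with a mean of at least 20 counts, with iLuc minus iEF on the x axis and WT-EF minus iEF on the y axis, both in log2 CPM from means of 3 libraries. The dashed line marks 1.5 and the dotted lines -0.25 and 0.25, and the 29 members in red fill the strip to the right, with C7 and FAM110C farthest out and NR0B1, GLI1 and C6, in black, above it.

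The members' change from iEF to iLuc ran from 1.51 to 7.33 in log2 CPM. All 3 iLuc libraries were above all 12 other libraries in 27 of the 29, against 9.71% of all 28793 genes tested, but nothing can be read from this share, since the choice itself asked for a high iLuc. ABCG1 and HLA-DMB were the 2 exceptions. All 29 were among the genes called higher in iLuc than in iEF (19.5% of the genes tested), and none was called higher (12.9% of the genes tested) or lower (17.0%) in WT-EF than in iEF, which the choice of genes also fixed. At the upper limit of the WT-EF window, PRAC1 (0.24), PDE6B (0.20) and ALDOC (0.19) lay just inside, and PDE9A (0.26), FLI1 (0.27) and ENSG00000227184 (0.28) just outside. At the lower limit HSD17B8 (-0.23), DHCR7 (-0.20) and HLA-DMB (-0.18) lay inside and ASIC1 (-0.28), MYO15B (-0.33) and SLITRK6 (-0.35) outside. NR4A1 (1.51), DHCR7 (1.52) and FADS1 (1.56) were nearest above the limit on iLuc minus iEF, and GPR153 (1.46) was nearest below it.

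The most strongly activated member was C7, a component of the complement membrane attack complex. It was at 34.3, 56.2 and 79.8 CPM in iLuc and at 0.131, 0.776 and 0.175 CPM in iEF, a 157-fold ratio of mean CPM. In WT-EF it was at 0.0831, 0.317 and 0.453 CPM, from 3, 12 and 17 counts, and the highest of these was 0.797% of the iLuc mean. All 12 libraries with the shRNA against EWS/FLI lay at or below 0.834 CPM. C7 occupies chr5:40909594-41020318 of GRCh37, and C6, the neighbouring gene of the same complex, starts 121.9 kb away. C6 had a like iLuc minus iEF (7.18), at 15.7, 17.4 and 21.4 CPM in iLuc and 0.0263 to 0.135 CPM in iEF. Its WT-EF libraries were at 0.0831, 0.608 and 1.30 CPM, a WT-EF minus iEF of 2.02. That rise began from a very low iEF level, and every WT-EF library of C6 stayed far below iLuc. Among a list of 31 complement components and regulators, 25 were tested and 2 were activated, of which C7 was the only member and the other was raised by at least 1.5 with WT-EF.

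FAM110C came next, at 2.60, 3.93 and 5.73 CPM in iLuc, 0.158, 0.0674 and 0.116 CPM in iEF and 0.138, 0.106 and 0.107 CPM in WT-EF. Its 3 WT-EF libraries spread less than those of iEF and rest on 5, 4 and 4 counts. LARGE2, a glycosyltransferase that extends the sugar chains of dystroglycan, was at 3.30, 2.52 and 2.75 CPM in iLuc, 0.263, 0.337 and 0.349 CPM in iEF and 0.194, 0.291 and 0.719 CPM in WT-EF. MEIOB, a DNA-binding protein of meiotic recombination, was at 2.48, 1.99 and 2.66 CPM in iLuc, 0.263, 0.573 and 0.320 CPM in iEF and 0.332, 0.317 and 0.426 CPM in WT-EF. In FAM110C and MEIOB the WT-EF libraries lay inside the range of the iEF libraries, whereas in LARGE2 the third WT-EF library lay above all iEF libraries and the first below them.

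HLA-DPB1 is the beta chain of an MHC class II molecule, which presents peptides to T cells, and HLA-DMB belongs to the complex that loads such molecules. HLA-DPB1 was at 2.69, 1.68 and 4.12 CPM in iLuc, 0.368, 0.270 and 0.465 CPM in iEF and 0.277, 0.291 and 0.852 CPM in WT-EF. HLA-DMB was at 1.28, 0.785 and 1.40 CPM in iLuc, 0.263, 0.371 and 0.320 CPM in iEF and 0.138, 0.238 and 0.559 CPM in WT-EF. They averaged 29.1 and 25 counts per library. Exons of HLA-DPB1 overlap those of HLA-DPA1 on the opposite strand. If strand was not used in counting, reads in that overlap may have been left out of both counts. Other genes of the class II system, chosen after their values were seen, differed in their order. CIITA, the class II transactivator, was at 0.328 to 0.642 CPM in iLuc and 2.24 to 3.57 CPM in iEF, and HLA-DRA was at 0 to 0.0896 CPM in iLuc and 0.640 to 2.73 CPM in iEF. HLA-DPA1 and HLA-DMA had an iLuc minus iEF of -0.60 and -0.64, with iLuc and iEF libraries that overlapped. HLA-DOA had a like order to the members (iLuc minus iEF of 1.79, WT-EF minus iEF of 0.18) but averaged 19 counts, under the limit of 20. ITGB2, the beta chain of leukocyte integrins, was at 7.21, 6.73 and 9.16 CPM in iLuc, 2.05, 2.93 and 2.01 CPM in iEF and 1.88, 2.38 and 3.09 CPM in WT-EF. For ITGB2 the iLuc libraries stood apart from all others and the WT-EF libraries spread around the iEF values.

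Enzymes and transporters of lipid metabolism held the most abundant member. FADS1 is a desaturase of polyunsaturated fatty acid synthesis, and at 117 CPM per kb of exon in iLuc it had the highest level per length, followed by PRAC1 (73.0), while DHCR7 was at 13.5 and ADAM28 had the lowest (0.194). FADS1 was at 1201, 1090.1 and 1311 CPM in iLuc, 367, 561 and 327 CPM in iEF and 343, 294 and 909 CPM in WT-EF. The first and second WT-EF libraries were near or below the lowest iEF library, and the third reached 75.7% of the iLuc mean. ABCG1, a cholesterol efflux transporter, was at 8.47, 9.93 and 7.82 CPM in iLuc, 1.29, 1.62 and 1.89 CPM in iEF and 0.554, 0.661 and 8.23 CPM in WT-EF. WT-EF replicate 3 lay inside the iLuc range, and the first and second lay below every iEF library. DHCR7, the last enzyme of a branch of cholesterol synthesis, was at 91.7, 88.0 and 99.4 CPM in iLuc, 25, 46.9 and 29 CPM in iEF and 20.7, 27.8 and 39.4 CPM in WT-EF. HSD17B8, a mitochondrial dehydrogenase, was at 2.19 to 2.63 CPM in iLuc, 0.552 to 1.05 CPM in iEF and 0.388 to 0.959 CPM in WT-EF. ALDH6A1, an enzyme of valine breakdown, was at 29.6 to 35.2 CPM in iLuc, 7.99 to 9.61 CPM in iEF and 5.48 to 13.6 CPM in WT-EF, and ALDOC, an aldolase of glycolysis, was at 6.20 to 11.1, 1.43 to 3.95 and 1.25 to 4.55 CPM in the same conditions.

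Among other genes of lipid metabolism, chosen after their values were seen, the same library was also high. FADS2, whose exons overlap those of FADS1 on the opposite strand, was at 180, 159 and 474 CPM in WT-EF and 462 to 567 CPM in iLuc. SCD, the stearoyl-CoA desaturase, was at 145, 161 and 390.2 CPM in WT-EF and 531 to 566 CPM in iLuc, and SREBF1, a transcription factor of lipid synthesis, was at 28.4, 20.3 and 75.0 CPM in WT-EF and 76.1 to 88.8 CPM in iLuc. OLMALINC, a long noncoding RNA gene that lies 8.27 kb from SCD, was at 19.9, 20.9 and 17.0 CPM in iLuc, 3.18, 6.31 and 3.78 CPM in iEF and 2.49, 1.93 and 11.1 CPM in WT-EF. SQLE, the squalene epoxidase of cholesterol synthesis, was at 131.7, 131.4 and 109 CPM in WT-EF, so that the third library was the lowest there. The sources used here do not say whether reads were counted by strand. Without strand, reads where FADS1 and FADS2 exons overlap may have been left out of both counts.

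Transcription factors among the members were MEOX1, a homeobox protein of the somites, MYCL, of the MYC family, and NR4A1, an orphan nuclear receptor. MEOX1 was at 1.5, 2.08 and 1.67 CPM in iLuc, 0.105, 0.607 and 0.436 CPM in iEF and 0.111, 0.317 and 0.559 CPM in WT-EF. MYCL was at 2.26, 1.88 and 1.46 CPM in iLuc, 0.289, 0.337 and 0.582 CPM in iEF and 0.222, 0.396 and 0.799 CPM in WT-EF. NR4A1 was at 21, 29.1 and 22.4 CPM in iLuc, 8.88, 9.17 and 7.18 CPM in iEF and 7.86, 4.52 and 19.5 CPM in WT-EF, the third library being at 80.8% of the iLuc mean. In all 3 genes the WT-EF libraries differed more among themselves, on the log2 scale, than the iLuc libraries did. Other conditions spread as much or more. The SD of MEOX1 was 0.94 in WT-EF, 1.07 in iEF, 1.00 in Δ22 and 1.34 in DAF. That of MYCL was 0.81 in WT-EF and 0.86 in DAF, and that of NR4A1 1.06 in WT-EF and 1.05 in Δ22.

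PRAC1, a small nuclear protein, was at 26.1, 30.0 and 27.5 CPM in iLuc, 5.60, 6.95 and 6.19 CPM in iEF and 4.15, 7.06 and 13.4 CPM in WT-EF. TMEM132B, a transmembrane protein, was at 26.8, 25.5 and 29.8 CPM in iLuc, 9.85, 6.91 and 8.78 CPM in iEF and 9.44, 10.9 and 6.44 CPM in WT-EF, with the third library the lowest. ARHGAP20, a GTPase-activating protein, was at 14.3 to 24.4 CPM in iLuc, 4.76 to 5.78 CPM in iEF and 4.96 to 8.09 CPM in WT-EF. BACE2, an aspartyl protease, was at 7.61 to 11.8, 1.23 to 3.58 and 1.25 to 2.69 CPM in these conditions, and PDE6B, a subunit of the rod photoreceptor phosphodiesterase, at 7.67 to 8.89, 1.63 to 2.29 and 1.63 to 2.96 CPM. C1QL1, a secreted protein with a C1q domain, was at 4.34 to 5.61 CPM in iLuc, 1.10 to 1.54 CPM in iEF and 0.803 to 2.32 CPM in WT-EF. Other members were the metalloprotease ADAM28, RNF175, IGFBPL1, TMEM150C and ENSG00000179294, for which no symbol was matched, with iLuc levels between 1.16 and 9.19 CPM and iEF levels between 0.289 and 3.57 CPM.

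**Figure D2:**
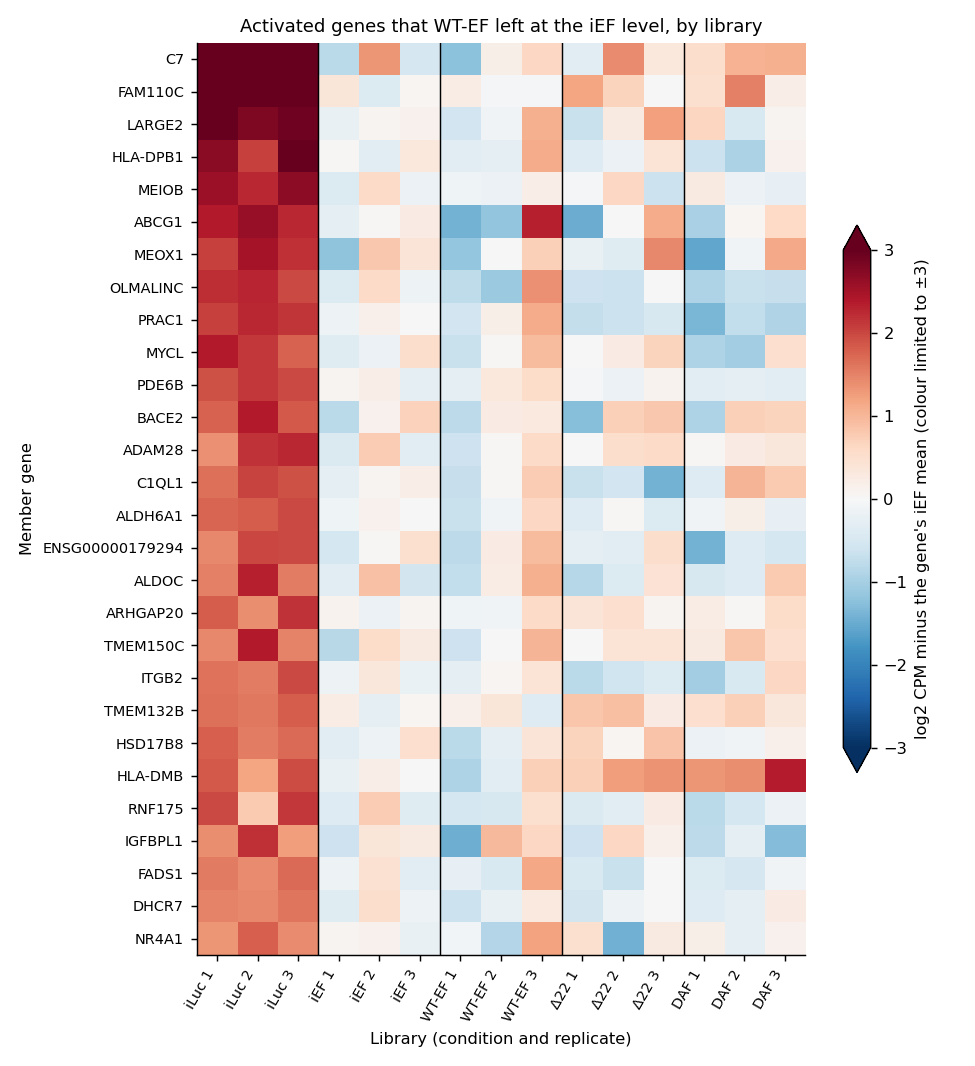
Each row is a member (1 of the 29 is not drawn), ordered by iLuc minus iEF, and each column a library. Colour gives log2 CPM minus the gene's iEF mean, limited to ±3. The iLuc columns are red throughout and the WT-EF 3 column is red in all rows but those of FAM110C and TMEM132B, while WT-EF 1 is mostly blue.

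The mean of WT-EF hid a difference between its libraries. WT-EF replicate 3 was the highest of the 3 WT-EF libraries in 26 of the 29 members (89.7%), against 34.6% of all genes tested, 36.3% of the 15467 genes with a mean of at least 20 counts and 73.6% of the 1010 other activated genes. The exceptions were FAM110C, TMEM132B and IGFBPL1. Members had a median WT-EF minus the iEF mean of -0.62 in replicate 1, -0.03 in replicate 2 and 0.65 in replicate 3, and lay above the iEF mean in 2, 12 and 27 of the 29. In the other activated genes the medians were 1.35, 1.77 and 2.07 in the same libraries. Since the choice fixed the mean of the 3 libraries, a member with 1 high library had to have another that was low, and these counts are a description. The third library was over 1 above the iEF mean in 9 members, and covered more than 50% of the log2 distance from iEF to iLuc in 8, namely ABCG1 (96.7%), NR4A1 (80.6%), FADS1 (74.5%), OLMALINC (63.9%), ALDOC (59.9%), TMEM150C (57.9%), ENSG00000179294 (52.5%) and PRAC1 (51.3%). In C7, MEIOB and FAM110C it covered 8.43%, 7.53% and -0.61%.

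**Figure D3:**
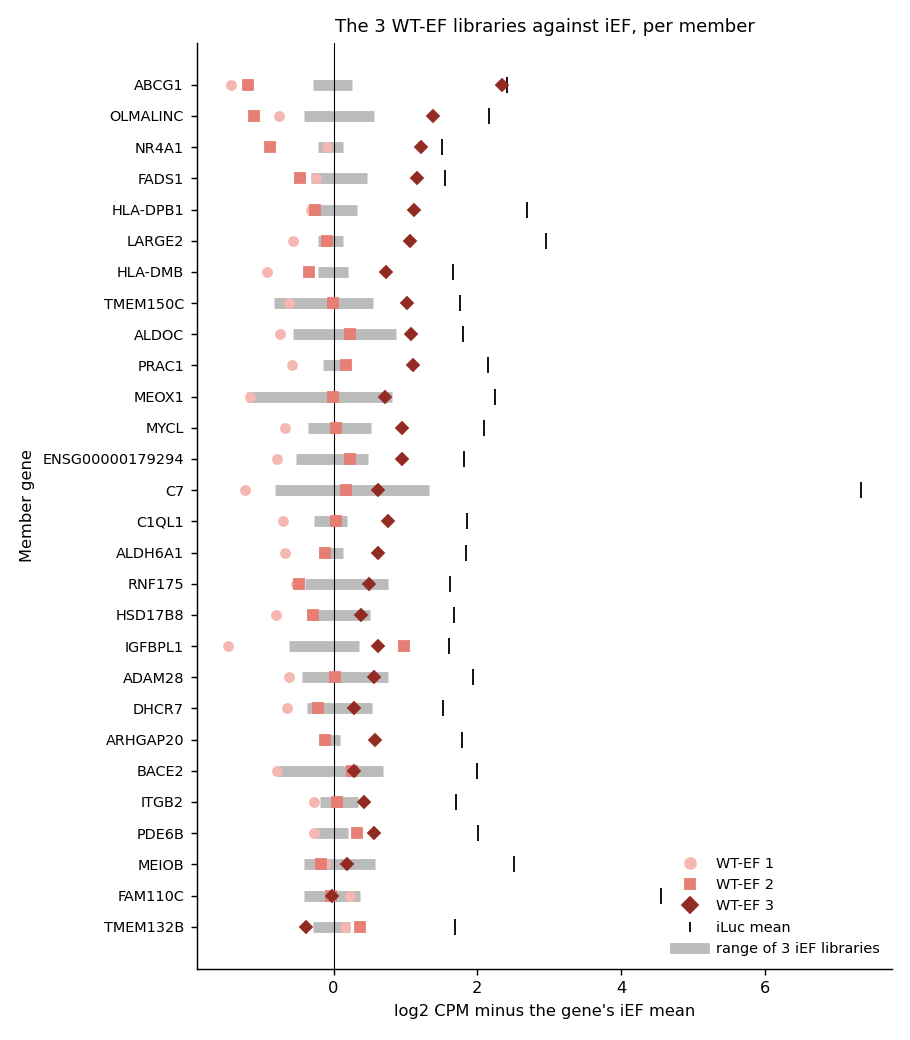
For each member but 1, the 3 WT-EF libraries (points), the range of the 3 iEF libraries (grey bar) and the iLuc mean (tick) are plotted as log2 CPM minus the iEF mean, with members ordered by how far WT-EF 3 lies above the mean of WT-EF 1 and 2. ABCG1, at the top, has WT-EF 3 at the iLuc mean, and TMEM132B, at the bottom, has WT-EF 3 lowest.

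The spread within WT-EF was the widest of the 5 conditions for these genes, with a median SD of log2 CPM of 0.81 (n = 3 libraries), against 0.41 in iEF, 0.37 in Δ22, 0.34 in DAF and 0.25 in iLuc. In the other activated genes the median SD was 0.52 in Δ22, 0.45 in WT-EF, 0.43 in DAF, 0.40 in iEF and 0.23 in iLuc, so that WT-EF was not the widest there. The choice used the mean of these same WT-EF libraries. It can favour activated genes whose WT-EF libraries disagree, so the members' wider spread in WT-EF is a description and not a separate result. FLI1 in the third WT-EF library, at 18.7 CPM, exceeded the mean of the other WT-EF libraries by 0.14 in log2 CPM. FLI1 reads pool endogenous and cDNA sequence, so this does not give the level of the construct, whose part in the difference was not tested. Replicate 3 was also the highest library in 18 of the 29 members in Δ22 (62.1%, against 23.9% of other activated genes and 39.2% of genes with a mean of at least 20 counts). It was the highest in 14 in DAF and 14 in iLuc (48.3% each, against 40.3% and 38.1% of genes with that mean). In iEF replicate 2 was the highest in 18 members, and in 699 of the 1010 other activated genes. The replicate number was treated as a batch by the authors, and a difference between replicate sets and one between transductions cannot be told apart.

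The choice was repeated with each replicate number left out, and the left-out libraries were then read. Without replicate 1, 23 genes were chosen, and in replicate 1 their median WT-EF minus iEF was -0.13. Without replicate 2, 25 genes were chosen, and their median in replicate 2 was -0.12. Without replicate 3, 41 genes were chosen, and their median in replicate 3 was 0.93, with 18 of the 41 over 1. The other activated genes had medians of 1.51, 1.42 and 2.18 in replicates 1, 2 and 3. Within the window of -0.25 to 0.25 the left-out libraries placed 8, 9 and 4 of the chosen genes. Of the 29 members, 2 were chosen all 3 times (FAM110C and BACE2), 11 in 2 of the choices, 12 in 1 and 4 in none (ABCG1, ALDOC, RNF175 and FADS1). With WT-EF replicate 3 alone left out, 41 genes were chosen, of which 9 were members, and with WT-EF replicate 1 alone left out, 16 genes, of which 8 were members. Leaving out WT-EF replicate 2 alone gave 33 genes, of which 20 were members. These last 3 choices were added after seeing the data.

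**Figure D4:**
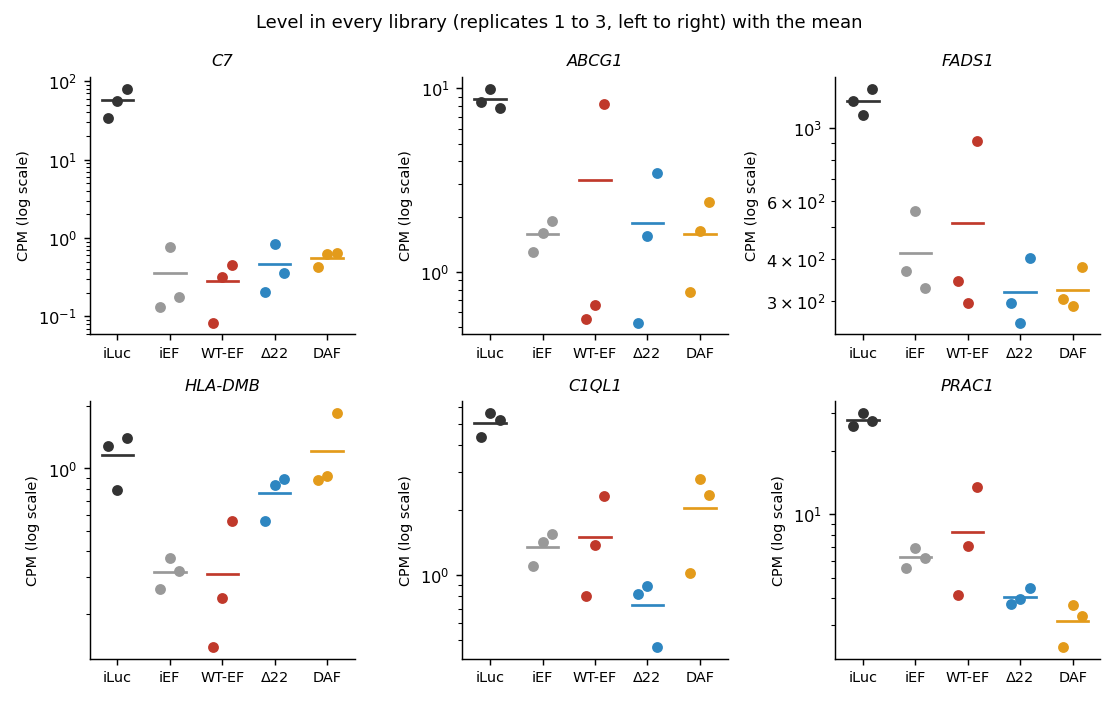
CPM in every library of 6 members, on log axes, with replicates 1 to 3 from left to right within each condition and a line at the mean. ABCG1 and FADS1 show 1 WT-EF library near the iLuc points, C7 shows none, HLA-DMB lies above iEF in all Δ22 and DAF libraries, and PRAC1 below it.

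DAF and Δ22 libraries played no part in the choice, other than in the mean count and the normalisation, and their difference tests whether the EWS domain with tyrosines mutated changed these genes relative to no EWS domain. None of the 29 members was called higher in DAF than in Δ22 (0.948% of the genes tested were) and none lower (0.379% were) at an adjusted p under 0.05 (edgeR, quasi-likelihood, with the adjustment over all genes tested). At an unadjusted p under 0.05, 1 member was higher and 3 were lower. The median log2 fold change was -0.09 over the members, with 13 above 0 and 16 below, and -0.02 over all genes tested. The other 1010 activated genes had a median of 0.35, with 142 called higher and 0 lower, and the 588 of them that WT-EF raised by 1.5 or more had a median of 0.65, with 130 called higher. For 14 of the 29 members the 95% interval of the difference lay within a 2-fold change either way, and for the rest it reached past that, so that a difference over 2-fold is not excluded by these data. All intervals given here are normal approximations from the edgeR standard error, and are somewhat narrower than the test's p-values imply.

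C1QL1 had the largest difference, at 0.821, 0.886 and 0.465 CPM in Δ22 and 1.02, 2.77 and 2.35 CPM in DAF. All 3 DAF libraries were above all 3 Δ22 libraries. Its log2 fold change of 1.40 (95% interval 0.73 to 2.07) had an adjusted p of 0.0642 in the edgeR test, which ranged from 0.000325 to 0.619 over 9 alternative analyses and was under 0.05 in 3 of them. DESeq2's Wald test was 1 of these, with 1 member called higher (C1QL1) and 0 lower. IGFBPL1 had the largest difference downward, -0.87 (95% interval -1.63 to -0.10, adjusted p = 0.462, same edgeR test), with 0.791, 1.96 and 1.39 CPM in Δ22 and 0.703, 1.03 and 0.469 CPM in DAF, which overlap. For the most abundant member, FADS1, the difference was 0.04 (95% interval -0.52 to 0.60), and for C7 it was 0.26 (-0.62 to 1.14).

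**Figure D5:**
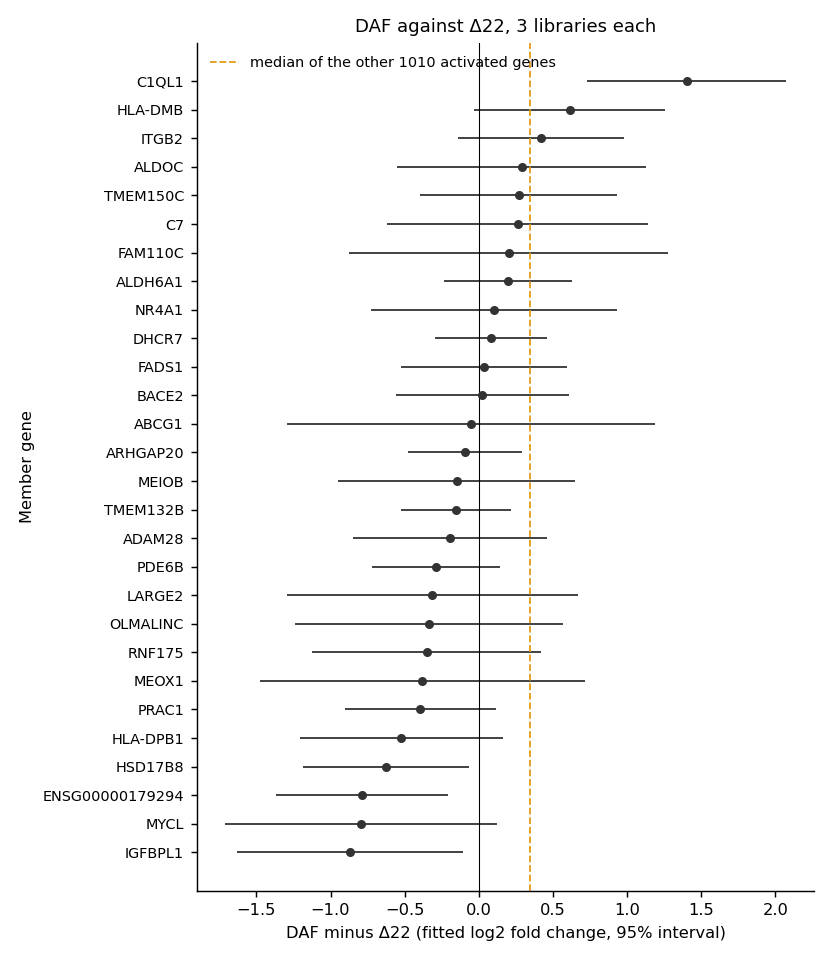
Fitted log2 fold change of DAF over Δ22 for each member but 1, with its 95% interval from the edgeR standard error (normal approximation, 3 libraries each). The dashed line marks the median of the other 1010 activated genes, 0.35, and the intervals of C1QL1, HSD17B8, ENSG00000179294 and IGFBPL1 are those that leave out 0.

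Against iEF, both constructs share the iEF libraries with the choice of the genes, so their values are given side by side. DAF was called higher than iEF in 1 of the 29 members (HLA-DMB, against 5.00% of the genes tested) and lower in 1 (PRAC1, against 6.19%), which is no more than the share of all genes, and nothing is read from these calls. Δ22 was higher in 0 (0.472% of the genes tested) and lower in 0 (0.830%) by the edgeR test, with 2 higher and 4 lower at an unadjusted p under 0.05, and DESeq2's Wald test called 1 higher (TMEM132B) and 1 lower. The median log2 fold change of the members was -0.08 for DAF and -0.01 for Δ22, and that of the other activated genes was 0.65 and 0.26.

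HLA-DMB was at 0.557, 0.834 and 0.893 CPM in Δ22 and 0.879, 0.923 and 1.84 CPM in DAF, against 0.263 to 0.371 CPM in iEF, and both constructs' libraries lay above all iEF libraries. The log2 fold change over iEF was 1.88 for DAF (SE 0.37) and 1.26 for Δ22 (SE 0.38), from iEF libraries that the choice also used. DAF and Δ22 differed by 0.61 (95% interval -0.03 to 1.26, edgeR adjusted p = 0.592). HLA-DMB rests on 10 to 11 counts in the iEF libraries and 25 to 55 in the DAF libraries. Its exons overlap those of 2 other annotated genes on the same strand, and reads in the overlap may have been left out of its count.

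PRAC1 was at 2.35, 3.72 and 3.32 CPM in DAF and 3.78, 3.99 and 4.47 CPM in Δ22, against 5.60, 6.95 and 6.19 CPM in iEF. No DAF or Δ22 library overlapped the iEF libraries. The log2 fold change over iEF was -1.01 for DAF (SE 0.26) and -0.62 for Δ22 (SE 0.25), and the call in DAF was lost without the replicate block and without replicate 1 or 2. DAF and Δ22 differed by -0.39 (95% interval -0.90 to 0.12, edgeR adjusted p = 0.701). TMEM132B lay above all iEF libraries in both constructs, at 15.1, 15.8 and 9.97 CPM in Δ22 and 11.9, 13.8 and 10.7 CPM in DAF (log2 fold changes over iEF of 0.65 and 0.50).

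Genes known to respond to EWS/FLI set a scale for these values. NR0B1, a nuclear receptor activated from a promoter-proximal microsatellite, was at 49.8 to 61.2 CPM in iLuc, 3.94 to 8.67 CPM in iEF, 42.2 to 59.4 CPM in WT-EF, 3.60 to 18.7 CPM in Δ22 and 15.7 to 44.4 CPM in DAF. GLI1, a transcription factor of hedgehog signalling, was at 6.06 to 8.05 CPM in iLuc, 0.145 to 0.438 CPM in iEF and 1.5 to 4.37 CPM in WT-EF, and NKX2-2, a homeobox transcription factor, at 4.31 to 5.89, 0.873 to 1.01 and 2.14 to 2.69 CPM. In these 3 genes every WT-EF library was above every iEF library, which held in none of C7, FAM110C, ABCG1 and FADS1. The choice of members held their mean WT-EF near that of iEF and all but fixed this, so it is a description. A list of 27 known Ewing sarcoma target genes held 18 activated genes, of which 0 were members and 16 had a WT-EF minus iEF of at least 1.5. Of 30 synapse genes, 10 were activated and 0 were members, and the families of solute carriers (23 activated), ZNF zinc finger genes (23 activated) and potassium channels (13 activated) also held 0 members. Members are 2.79% of all activated genes. For groups of this size 0 members is near that share, and nothing is read from their absence, here or among the known targets.

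Of the 28 members with a match in the annotation, 27 were protein-coding (96.4%, against 81.7% of the other activated genes and 85.2% of genes with a mean of at least 20 counts), and OLMALINC was the only noncoding one. Chromosomes 11 and 17 held 4 members each (14.3%, against 5.70% and 5.38% of genes with a mean of at least 20 counts). Chromosomes 4, 6 and 21 held 3 each (10.7%, against 3.94%, 5.33% and 1.05% of those genes). Of activated genes, chromosome 21 held 1.97%. These chromosomes were named for their counts, and no share was tested. The 3 on chromosome 6 lie in the MHC region, with HLA-DPB1 (chr6:33043767-33057473) 135 kb from HLA-DMB and 115 kb from HSD17B8. Of the genes with a mean of at least 20 counts within 200 kb of a member, 10 of 182 were activated (5.49%), against 6.54% of all other such genes. The choice of members all but fixes that an activated neighbour outside the group has the larger WT-EF minus iEF, so the neighbours' values are a description. ITGB2 had ITGB2-AS1 beside it, which overlaps it on the opposite strand (iLuc minus iEF of 3.81, WT-EF minus iEF of 1.34), and LINC01547 825 bases away (4.47 and 2.02). TTLL6, 39.7 kb from PRAC1, had 4.25 and 1.33. If strand was not used in counting, reads where exons of ITGB2 and its antisense gene overlap may have been left out of both counts.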

How the data were processed

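Libraries of A673 cells (ScriptSeq, paired-end) were aligned to hg19 with STAR by the authors, who then ran htseq-count (intersection-strict) on the alignments. Their deposited raw counts, whole numbers for 57820 genes, were used here. Their table of ComBat-adjusted counts (27002 genes, decimal count values deposited by the authors after adjusting each replicate set as a batch) served as an alternative only, and the deposited table of their comparisons (fold changes and p-values) was not used. A total of 3 columns of other samples were not used.

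Genes averaging at least 1 count (28793) were normalized by TMM and fitted with edgeR 4.0.16 (quasi-likelihood, R 4.3.3), all 15 libraries together, with condition and, as a block, replicate number. The methods treat each replicate set as a batch, and deviations from group means had a median r of 0.18 over 30 same-numbered pairs of libraries (21 over 0.1) and -0.08 over 60 others. The cutoff was a Benjamini-Hochberg adjusted p of 0.05. Replicates of a condition differed by more than sampling noise (chi-square per gene 14.2 to 92.2). Alternatives included DESeq2 1.42.0. The fit and the choice of genes were tested on simulated data.

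The members and the gene lists were chosen with earlier results of these data known. Genes named are FLI1, NR0B1, NKX2-2 and GLI1, the 10 members with the largest iLuc minus iEF, the 8 most abundant in iLuc, members called in a comparison, those nearest the limits and in a list, and neighbouring members within 200 kb. Other members and genes were named after their values were seen. Coordinates are of GRCh37 (GENCODE annotation lifted to that build), with 28 of 29 members matched. The individual values of 1 member are not reported here, though it is included in all counts.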

Additional observations from a re-analysis of the deposited data

How the results depend on the processing

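Levels of the least abundant members rest on few counts, and 9 of the 29 averaged under 50 counts per library, which limits how small a difference could be seen. The number of genes chosen was 29 with DESeq2's size factors (28 shared with the 29 members), 28 with 0.5 counts added before the logarithm and 20 with a mean of at least 50 counts. It was 72 with a mean of at least 1 count, 76 with a window of -0.5 to 0.5, and 23 to 41 without 1 replicate number. ComBat-adjusted counts gave 23 genes, 20 of them members, though C7 and FAM110C are not listed in that table. With TMM over all genes, chosen after seeing the data, it was 28, and without WT-EF replicate 1, also chosen after seeing the data, it was 16, of which 8 were members.

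Members called in DAF against Δ22 were 0 in each direction in edgeR with DESeq2's size factors, with a mean of at least 10 counts, with no replicate block and without any 1 replicate (range 0 to 0). With DESeq2's Wald test 1 was higher (C1QL1), with any gene that had a count in at least 1 library 1 was higher (C1QL1, adjusted p = 0.000325), and with only the 6 libraries compared 1 was higher (C1QL1) and 1 lower (IGFBPL1, adjusted p = 0.0377). In DAF against iEF, no replicate block left 0 lower in place of 1, the 6 libraries compared gave 3 lower, and a count in at least 1 library gave 2 higher and 4 lower. Leaving out 1 replicate gave 1 to 2 higher and 0 to 5 lower. In Δ22 against iEF, DESeq2's Wald test gave 1 higher and 1 lower, the 6 libraries 1 lower, a count in at least 1 library 2 higher and 2 lower, and leaving out 1 replicate 0 to 1 higher and 0 to 2 lower. The upper ends came without replicate 3, where OLMALINC, ITGB2, FADS1 and PRAC1 were among those lower in DAF and HLA-DMB and TMEM132B higher. The cause of these changes was not tested. No called member changed sign under any of the 9 alternatives, in which 755 of 783 member values stayed on the same side of the cutoff. The fit without the replicate block changed no other call.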
